A study of Mus musculus with 8 samples.

Results

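A set of 9 genes of Hedgehog signal reception and transcription was followed from mouse embryonic stem cells (ESC) to neural progenitor cells (NPC). They were the receptor Ptch1, the transducer Smo, the coreceptors Gas1, Cdon and Boc, the inhibitor Sufu and the transcription factors Gli1, Gli2 and Gli3. The rule names these 9 genes, among 21202 named genes of the deposited tables, and sets no threshold on their values. The ESC line F1-21.6 is a hybrid with a 129Sv-Cast/EiJ background, kept on inactivated embryonic fibroblast feeders in serum with leukaemia inhibitory factor, and the NPC came from 1 clone derived from that line. Neither group carried a further genotype or a drug treatment in the labels, and no source used here gives the time in culture or the agents of the neural differentiation. Each cell type had 2 biological replicates with 2 technical libraries each, 8 libraries of ribosomal RNA-depleted total RNA in all. Because the NPC replicates share a clone, the spread between them does not cover variation between clones, and p-values measure only the spread between these samples.

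Hedgehog ligands bind Ptch1 at the cell surface with the help of Gas1, Cdon or Boc. Without ligand, Ptch1 keeps Smo, a seven-pass membrane protein, inactive. Active Smo in the primary cilium releases the Gli factors from Sufu. Gli2 is the main activator, Gli3 acts largely as a repressor after partial proteolysis, and Gli1 is an activator that is itself a transcriptional target of the pathway, as is Ptch1. In the neural tube this pathway sets ventral cell fates, and in later progenitors it promotes division. In the neural tube the coreceptor genes are themselves repressed by the pathway.

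The exon data are RPKM values (reads per kilobase of gene and per unit of library depth) pooled per cell type by the authors, with the authors' own log2 fold change and adjusted p-value. They carry no replicate values, so no spread stands beside them and their depth is unknown. How the authors' exon test treated the 2 technical libraries of each biological replicate is not known here. If these counted as replicates, the deposited adjusted p-values would be too small. The intron data are RPKM per biological replicate, from which 5536918 to 7002634 intron reads were recovered per replicate. The depths inferred as RPKM denominators of the same replicates were lower, at 5186790 to 6500767, so the recovered sums may overstate depth. In mm9 coordinates the files list the gene starts at chr13 position 63615649 (Ptch1), chr6 29685497 (Smo), chr13 60278896 (Gas1), chr9 35228709 (Cdon), chr16 44558983 (Boc), chr19 46471408 (Sufu), chr10 126778635 (Gli1), chr1 120950196 (Gli2) and chr13 15555068 (Gli3). Boc was not analysed here on exons. Gas1, annotated with 1 exon in GENCODE M21, was not analysed here on introns. Both cell types carried their defining transcripts. All 6 ESC markers fell (summed exon level 5484 RPKM in ESC and 12.6 in NPC) and all 8 tested neural progenitor markers rose (463 and 14736). The 2 NPC replicates differed in background. In 240 olfactory, vomeronasal and taste receptor genes, which neither cell type is known to use, the median intron level was 0.748 RPKM in NPC replicate 1 and 0.0825 in NPC replicate 2, against 0.0287 and 0 in ESC replicates 1 and 2.

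Promoter sequences of 7 of the 9 genes were matched in RefSeq (GRCm38.p6), and 3 are shown: Gli2, the one with a match to a Gli motif, Ptch1, the receptor that is itself a target, and Gas1, which had the highest exon fold change of the set. The Gli factors bind a DNA site written GACCACCCA, so the 250 bases before each start were searched on both strands for these letters and for their inner part ACCACCC, which every match of the longer motif also contains. None of the 7 held the longer motif, found in 0.225% of 32851 promoters of the same length. The inner part stood once, before Gli2, and in 3.92% of all promoters. Capitals mark it below, as its reverse complement, at position -205 from the start. The Gli2 stretch is chr1:119053620-119053869 on the minus strand, that of Ptch1 chr13:63565736-63565985 on the minus strand and that of Gas1 chr13:60177536-60177785 on the minus strand.
Gli2: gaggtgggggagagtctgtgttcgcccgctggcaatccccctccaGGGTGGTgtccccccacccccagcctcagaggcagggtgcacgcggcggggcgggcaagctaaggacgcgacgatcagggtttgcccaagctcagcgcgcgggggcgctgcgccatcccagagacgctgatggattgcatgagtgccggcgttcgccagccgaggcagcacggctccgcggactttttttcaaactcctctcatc
Ptch1: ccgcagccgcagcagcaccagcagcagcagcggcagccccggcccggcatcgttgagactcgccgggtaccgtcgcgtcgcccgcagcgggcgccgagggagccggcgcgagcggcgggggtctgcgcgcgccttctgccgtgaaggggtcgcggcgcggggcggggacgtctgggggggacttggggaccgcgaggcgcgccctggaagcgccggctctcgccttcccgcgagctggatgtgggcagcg
Gas1: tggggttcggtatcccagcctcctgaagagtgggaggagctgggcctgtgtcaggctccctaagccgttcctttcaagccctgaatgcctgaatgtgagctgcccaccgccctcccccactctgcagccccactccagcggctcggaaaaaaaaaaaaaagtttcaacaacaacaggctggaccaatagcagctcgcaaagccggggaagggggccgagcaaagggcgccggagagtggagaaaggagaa
The Ptch1 stretch was the richest in CpG of the 7, with 41 CpG dinucleotides and 78.4% G and C, while Gas1 had 10 (58.8%) and Gli2 had 22 (67.2%). The stretch of Cdon, the other coreceptor with an entry, had 1 CpG and 42.8% G and C. Whether any of the 7 stretches belongs to the gene start listed in mm9 was not tested, since the builds differ. A letter match is no binding site, and its lack says nothing of the factor.

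On exons the surface genes of the set with values, Ptch1, Smo, Gas1 and Cdon, were higher in NPC, and the activators Gli1 and Gli2 were lower. Of the 8 genes with exon values, all 8 passed the filter of a mean of at least 1 RPKM. By the authors' deposited table, 5 were higher in NPC (Ptch1, Smo, Gas1, Cdon and Gli3), 2 were lower (Gli1 and Gli2) and Sufu was not called at an adjusted p of 0.05. Over all 12509 tested genes the same rule called 66.2% of genes, 32.3% higher and 33.9% lower. With that background a count of 7 of 8 says little about these genes, and their sizes and directions are given one by one. The median log2 fold change of the 8 genes was 0.78, against -0.07 over all tested genes.

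**Figure D1:**
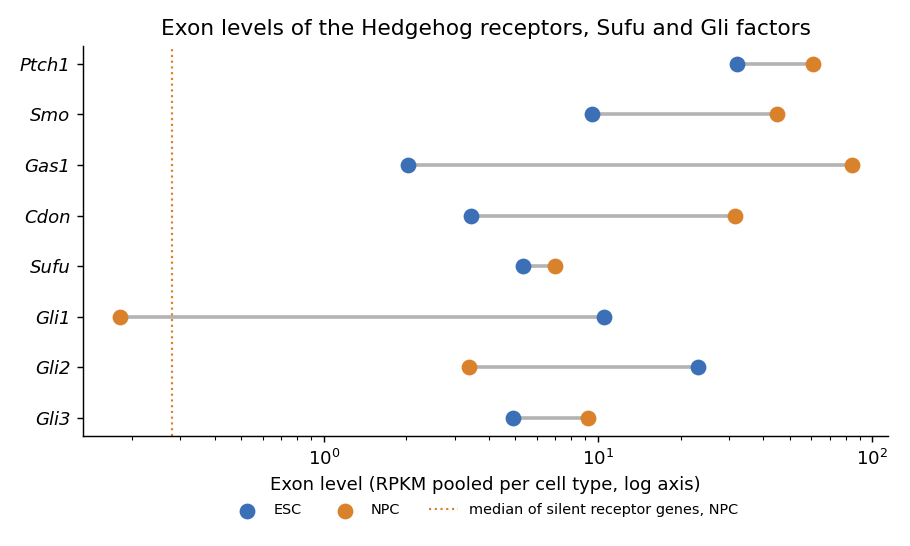
Exon level in RPKM (log axis) of each gene in ESC (blue) and NPC (orange), pooled per cell type by the authors, with the median of the silent receptor genes in NPC as a dotted line. Gas1 moved from 2.03 to 84.3 RPKM, and Gli1 from 10.5 to 0.180, below that median of 0.279.

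Ptch1, the ligand receptor and brake on Smo, was the most abundant of the 8 in ESC and second in NPC. In ESC its exons were at 32.2 RPKM and in NPC at 60.7, a log2 fold change of 0.78 in the authors' deposited table (adjusted p = 0.00302). Its introns were at 2.93 and 2.99 RPKM in ESC replicates 1 and 2 and at 3.61 and 7.87 in NPC replicates 1 and 2. Both NPC values lay above both ESC values, but the NPC replicates differed from each other by more than the ESC mean. In limma the intron difference did not pass (0.69 on the log2(RPKM + 1) scale, SE 0.37, adjusted p = 0.145). Without NPC replicate 1 it was 1.16 with adjusted p = 0.0023, in a fit where 70.3% of all tested genes were called, 26.6% higher and 43.7% lower, and with the columns scaled to one median it was 1.09 with adjusted p = 0.0115, where 49.4% were called, 24.8% higher and 24.6% lower. The start site listed for Ptch1, a gene on the minus strand, is chr13 position 63615649 in mm9. That position lies inside the listed intron span of the gene (63612421 to 63665765), near the downstream end. Whether the RefSeq promoter printed above belongs to that start was not tested, since the builds differ.

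Smo, which carries the signal across the membrane, had a larger exon change than Ptch1, a difference that was not tested. Its exon level was 9.51 RPKM in ESC and 44.9 in NPC (deposited log2 fold change 2.11, adjusted p = 6.4e-15). Smo introns were at 1.34 and 1.42 RPKM in the ESC replicates and at 2.31 and 4.68 in the NPC replicates, in the same order. The groups did not overlap, and the difference passed in limma (0.87, SE 0.26, adjusted p = 0.0178). That call rests on few reads, with 37 and 44 for the ESC replicates and 64 and 116 for NPC, over 4777 bp of intron. It was lost when the receptor gene background was subtracted (0.68, adjusted p = 0.284). It was also lost without ESC replicate 1 (adjusted p = 0.328) or ESC replicate 2 (adjusted p = 0.2996), where the spread comes from the NPC pair alone. The ratio of Ptch1 to Smo went from 3.38 to 1.35 on exons, and on introns from 2.18 and 2.11 in the ESC replicates to 1.56 and 1.68 in the NPC replicates. The intron ratio, taken within each replicate, differed less between the NPC replicates than either gene did.

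Gas1, a lipid-anchored surface protein that binds Hedgehog ligands, made the largest rise of the set. It was the lowest of the 8 genes in ESC at 2.03 RPKM and the highest in NPC at 84.3, a deposited log2 fold change of 5.21 (adjusted p = 4.3e-65). This change exceeded those of 97.3% of all tested genes. A long noncoding RNA gene on the opposite strand overlaps Gas1 in GENCODE M21. No source used here says whether counting used strand, so the level of Gas1 may include reads of that gene. Overlapping genes are also listed for Ptch1, Smo, Cdon, Boc, Gli1, Gli2 and Gli3. For Ptch1, Smo, Cdon, Boc and Gli3 they include a gene on the same strand. The part of overlapping genes in the levels of the set was not tested.

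Cdon and Boc are related transmembrane proteins of the immunoglobulin superfamily that bind ligand beside Ptch1. Cdon exons went from 3.45 RPKM in ESC to 31.6 in NPC (deposited log2 fold change 3.04, adjusted p = 3.7e-32). Cdon introns were at 0.433 and 0.421 RPKM in the ESC replicates and at 2.01 and 3.61 in the NPC replicates. Both NPC values lay far above both ESC values, and the limma test passed (1.38, SE 0.22, adjusted p = 4.0e-04). Cdon stayed called without each of the 4 replicates in turn, with values of 1.08 to 1.69.

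Boc showed the widest intron contrast of the rising genes. Boc introns were at 0.124 and 0.0836 RPKM in the ESC replicates and at 1.51 in each NPC replicate. The ESC values stand for 21 and 16 reads, the NPC values for 258 and 231. The NPC mean was 14.6 times the ESC mean. In NPC replicate 1, 14 of the 240 silent receptor genes lay at or above Boc, and in replicate 2 only 1 did. In ESC replicates 1 and 2, 27 and 14 did, so the ESC mean under that ratio lies near background. With a mean of 0.808 RPKM, Boc did not pass the filter of the main limma test. Without the filter its difference was 1.19 and passed (adjusted p = 0.044, with 6.25% of all genes called, 1.21% higher and 5.04% lower), and in limma voom on recovered reads it was 3.87 (adjusted p = 0.0395, with 9.78% called, 4.02% higher and 5.76% lower), an alternative chosen after seeing the data.

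**Figure D2:**
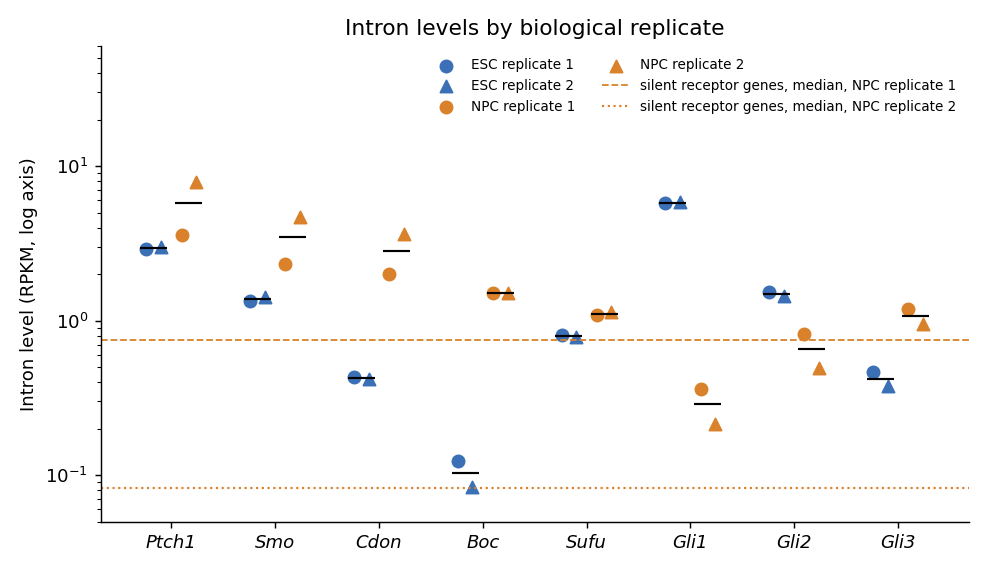
Intron level in RPKM (log axis) of each gene in ESC (blue) and NPC (orange), circles for replicate 1 and triangles for replicate 2, with a bar at each group mean. Dashed and dotted lines give the median of silent receptor genes in NPC replicates 1 (0.748 RPKM) and 2 (0.0825), and the 2 values of Gli1 in NPC are the lowest NPC points.

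Sufu, which holds Gli proteins in the cytoplasm, was the one gene of the 8 not called on exons. Exon levels were 5.34 RPKM in ESC and 6.98 in NPC, and the deposited log2 fold change of 0.26 was not called (adjusted p = 0.529). Sufu introns were at 0.805 and 0.780 RPKM in the ESC replicates and at 1.08 and 1.13 in the NPC replicates. The groups did not overlap, but 47 of the 240 silent receptor genes reached the Sufu level in NPC replicate 1. With a mean under 1 RPKM Sufu was not tested in the main limma fit. Without the filter its difference of 0.23 did not pass (adjusted p = 0.328). A missed threshold does not show that Sufu was the same in both cell types.

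Gli1, the activator that reports on pathway output in many tissues, was well above background in ESC and within it in NPC. Exon levels were 10.5 RPKM in ESC and 0.180 in NPC, a deposited log2 fold change of -6.09 (adjusted p = 6.9e-36). Of 1461 silent receptor genes with exon values, 66.1% were at or above 0.180 RPKM in NPC. Gli1 introns were at 5.76 and 5.85 RPKM in the ESC replicates and at 0.360 and 0.214 in the NPC replicates. The ESC values rest on 239 and 274 reads, the NPC values on 15 (95% exact Poisson interval 8.40 to 24.7) and 8 (3.45 to 15.8), intervals that cover counting error only. In NPC replicate 1, 188 of the 240 silent receptor genes had introns at or above the level of Gli1, and in replicate 2, 39 did. The intron fall passed in limma (-2.40, SE 0.20, adjusted p = 2.8e-05) and without each replicate in turn (-2.49 to -2.32).

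The introns of Gli1 stood high for its exons. In ESC its intron level was 55.1% of its exon level, a share above that of 93.7% of 11047 expressed genes, whose median was 11.1%. The other 6 genes with both values had shares of 6.39% (Gli2) to 14.9% (Sufu). A protein-coding gene, Arhgap9, overlaps Gli1 on the opposite strand. Its own levels in ESC were low, at 0.956 RPKM on exons and at 0.161 and 0.321 RPKM on introns in replicates 1 and 2. GENCODE M21 also has an antisense gene there, which was not analysed here, and its part in the Gli1 introns was not tested.

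Gli2, the main activator of the first response to ligand, was the most abundant Gli transcript of ESC and fell too. Exon levels were 23.3 RPKM in ESC and 3.39 in NPC (deposited log2 fold change -2.87, adjusted p = 1.4e-28). Gli2 introns were at 1.52 and 1.45 RPKM in the ESC replicates and at 0.819 and 0.491 in the NPC replicates, from 542 reads or more each. In NPC replicate 1, 93 of the 240 silent receptor genes lay at or above Gli2, and in replicate 2, 9 did. The limma test passed (-0.59, SE 0.18, adjusted p = 0.0196), but over all tested genes the median intron difference was itself -0.43. With the columns scaled to one median, which brought that median to -0.04 and moved the share of calls that were higher in NPC from 28.0% to 50.2%, Gli2 was at -0.20 and no longer called (adjusted p = 0.597). It was not called without ESC replicate 1 (adjusted p = 0.196) or ESC replicate 2 (adjusted p = 0.152) either. With the receptor gene background subtracted it was at -1.01 (adjusted p = 0.0121).

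Gli3, the main repressor of the family, rose modestly on exons, from 4.91 RPKM in ESC to 9.16 in NPC. The deposited log2 fold change of 0.78 had an adjusted p of 0.0127, so it would not pass at 0.01. Gli3 introns were at 0.463 and 0.380 RPKM in the ESC replicates and at 1.19 and 0.947 in the NPC replicates. The groups did not overlap, with 28 of the 240 silent receptor genes at or above Gli3 in NPC replicate 1 and 1 in replicate 2. Its mean of 0.746 RPKM kept Gli3 out of the main limma test, and without the filter the difference of 0.54 did not pass (adjusted p = 0.128).

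Together the 3 Gli genes changed in make-up as well as in amount. Their summed exon level was 38.7 RPKM in ESC and 12.7 in NPC. Gli1 and Gli2 made up 27.2% and 60.1% of it in ESC, and 1.41% and 26.6% in NPC. Gli3 went from 12.7% to 71.9%, so that the order Gli2, Gli1, Gli3 of ESC became Gli3, Gli2, Gli1 in NPC. On introns the Gli3 share was 5.97% and 4.95% in the ESC replicates and 50.3% and 57.3% in the NPC replicates. Every NPC share of Gli3 lay above every ESC share on both kinds of reads, while the leading gene of ESC differed, Gli2 on exons and Gli1 on introns. The part of the NPC background in these shares was not tested.

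**Figure D3:**
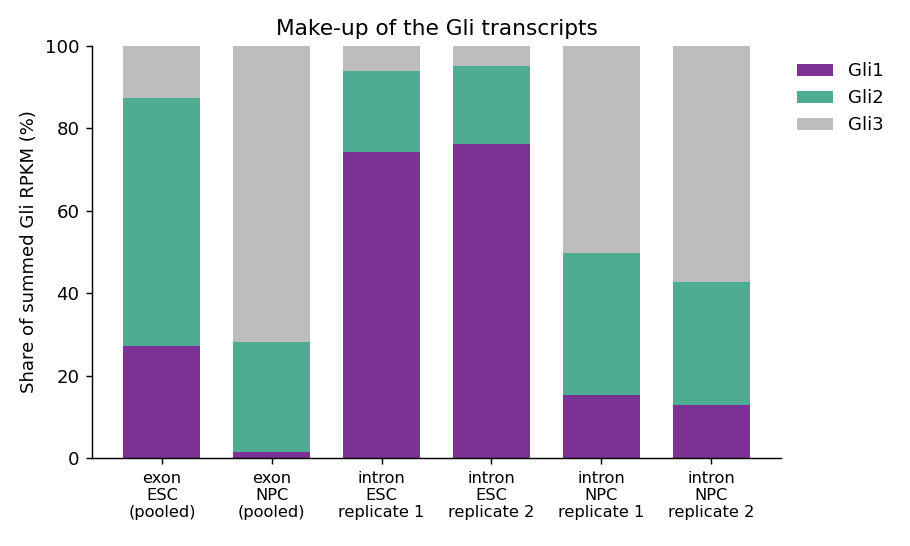
Share in percent of the summed RPKM of Gli1, Gli2 and Gli3, for exons pooled per cell type and for introns in each biological replicate. Gli3 held 12.7% of the exon sum in ESC and 71.9% in NPC, and at least 50.3% of the intron sum in each NPC replicate.

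On introns 5 of the 8 genes with values passed the filter, and limma called 2 higher (Smo and Cdon) and 2 lower (Gli1 and Gli2), with Ptch1 not called. Over all 8811 tested genes it called 47.3%, 13.2% higher and 34% lower. The 2 groups of replicates did not overlap in any of the 8 genes, 6 higher and 2 lower in NPC. This also held for 70.7% of all named intron genes (41.8% higher, 28.8% lower) and for 77.4% of those with a mean of at least 1 RPKM (21.9% higher, 55.5% lower), so it sets the 8 genes little apart. Of the 7 genes with both exon and intron values, none had opposite directions on them.

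Ranked by exon level, which carries no spread, the genes in ESC ran Ptch1, Gli2, Gli1, Smo, Sufu, Gli3, Cdon and Gas1. In NPC the order was Gas1, Ptch1, Smo, Cdon, Gli3, Sufu, Gli2 and Gli1. Ranked by mean intron level, ESC ran Gli1 (5.80 ± 0.0699 RPKM), Ptch1 (2.96 ± 0.0438), Gli2 (1.49 ± 0.0541), Smo (1.38 ± 0.0523), Sufu (0.793 ± 0.0176), Cdon (0.427 ± 0.00846), Gli3 (0.421 ± 0.0584) and Boc (0.104 ± 0.0283), each SD with n = 2. Of these neighbours the replicate values overlapped for Cdon and Gli3 alone. In NPC the intron order was Ptch1 (5.74 ± 3.01 RPKM), Smo (3.497 ± 1.67), Cdon (2.81 ± 1.13), Boc (1.51 ± 0.000181), Sufu (1.11 ± 0.0375), Gli3 (1.07 ± 0.174), Gli2 (0.655 ± 0.232) and Gli1 (0.287 ± 0.103), again SD with n = 2. There the values of Ptch1 and Smo, of Smo and Cdon, and of Sufu and Gli3 overlapped. The 2 Boc values in NPC differ by far less than the counting error of 258 and 231 reads.

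The rest of the pathway was read from a list of 65 genes in 6 roles. Of 55 tested on exons, 24 rose and 10 fell in the authors' deposited table, 61.8% called against 66.2% over all genes, with a median log2 fold change of 0.49 against -0.07. On introns 9 of 40 tested genes were called higher and 3 lower in limma (30% against 47.3%). These counts moved with the replicates, as did those over all genes. Without NPC replicate 1 they were 20 and 6 (65.0% of the list against 70.3% of all genes), and without NPC replicate 2 they were 9 and 14 (57.5% against 74.6%). Without ESC replicate 1 they were 2 and 2 (10.0% against 19.1%), and without ESC replicate 2 they were 1 and 2 (7.5% against 18.1%). Without the filter on low values they were 0 and 0 (6.25% of all genes called), and in limma voom on recovered reads 1 and 1 (3.28% against 9.78%). In each of these fits the share called in the list lay below that over all genes, and all but the one without the filter were chosen after seeing the data.

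None of the 3 ligand genes reached the filter in either cell type. Shh, the ligand of the ventral neural tube, had 0.0707 RPKM (ESC) and 0.462 RPKM (NPC), Ihh 0.401 and 0.138, and Dhh 0.544 and 0.291. Receptor genes taken as silent had exon medians of 0 and 0.279 RPKM, with an upper decile of 0.657 in NPC, above the NPC values of all 3 ligands. No upper decile was taken for ESC, where all 3 ligands lay above the median of 0. Of the genes of ligand release, Disp1, which frees lipidated ligand from the cell, rose from 3.73 to 6.99 RPKM (adjusted p = 0.035 in the authors' deposited table), and Scube3, a secreted protein of the Scube family, fell from 4.10 to 0.206 (adjusted p = 1.9e-13).

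Of 11 other surface proteins tested on exons, 5 rose and 4 fell (81.8% called, against 66.2% over all tested genes). Hhip, a decoy that binds ligand, was at 1.75 and 1.73 RPKM and was not called (adjusted p = 0.658 in the authors' deposited table). The glypican Gpc6 rose from 0.283 to 7.04 RPKM, and Gpr161, a ciliary receptor that restrains the pathway, from 1.87 to 12.3. The glypican Gpc4 fell from 13.7 to 1.92 RPKM and the large endocytic receptor Lrp2 from 5.62 to 1.79.

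Of 17 kinases and kinase subunits 7 rose and 3 fell (58.8% called, against 66.2% over all tested genes). Protein kinase A and Gsk3b phosphorylate Gli2 and Gli3 and so set their processing. Gsk3b rose from 18.2 to 105 RPKM on exons, the catalytic subunit Prkacb from 22.8 to 96.6 and the regulatory subunit Prkar1a from 47.6 to 220.4. The intron test was passed by Gsk3b (limma 0.84, adjusted p = 0.0385) and Prkacb (0.77, adjusted p = 0.00646), not by Prkar1a (0.98, adjusted p = 0.101). The falls were smaller: Prkar2a went from 46.6 to 24.1 RPKM, Adrbk1, a receptor kinase that acts on Smo, from 28.5 to 14.7, and Csnk1g1 from 11.0 to 7.74. Of 6 arrestin, G protein and cyclase genes 4 rose and none fell (66.7% called, against 66.2% over all tested genes). Those that rose included the cyclases Adcy6 (2.00 and 26.8 RPKM) and Adcy5 (0.139 and 2.13) and the stimulatory G protein Gnas (9.43 and 55.8). The imprinted Gnas locus holds overlapping transcripts, so its value is uncertain.

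Of 8 ciliary regulators 5 rose and 1 fell. Tulp3, an adaptor for ciliary membrane proteins, rose from 3.95 to 15.8 RPKM, the anterograde motor subunit Kif3a from 19.1 to 76.1 and the transport protein Ift172 from 6.69 to 21.5. Rab23, a negative regulator of the pathway, fell from 13.2 to 7.18 RPKM on exons, and on introns from 5.30 and 4.01 in the ESC replicates to 1.00 and 1.43 in the NPC replicates (limma -1.35, SE 0.24, adjusted p = 9.2e-04). Of 11 degradation genes 2 rose and 1 fell (27.3% called, against 66.2% over all tested genes). Spop, the adaptor that marks Gli proteins for destruction, rose from 26.6 to 58.6 RPKM and the ligase Mgrn1 from 11.3 to 23.7, while the scaffold Cul3 fell from 428 to 233.

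**Figure D4:**
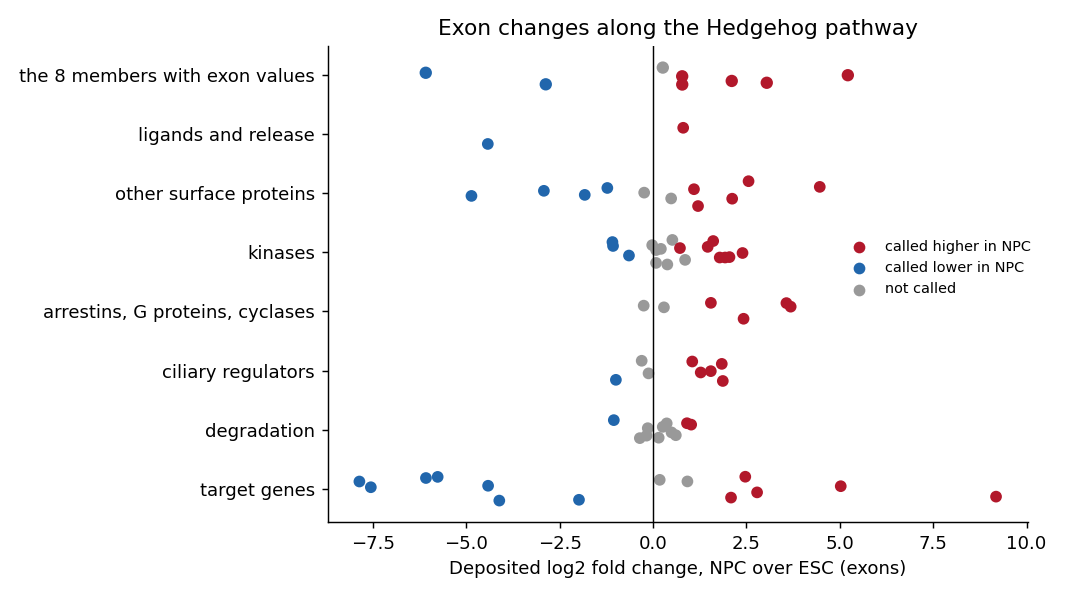
Deposited log2 fold change of NPC over ESC on exons for the 8 genes of the set and for each tested gene of the pathway and target lists, by role, with called genes in red (higher) and blue (lower) and others in grey. The set spans -6.09 (Gli1) to 5.21 (Gas1), and target genes lie far out on both sides.

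Genes known as Hedgehog targets in some tissue moved both ways. Apart from the genes already counted above, 14 of 26 listed targets were tested on exons, of which 5 rose and 7 fell. This was 85.7% called against 66.2% over all tested genes (32.3% higher, 33.9% lower). The median log2 fold change was -0.90 against -0.07. Sfrp1, a secreted Wnt antagonist, fell from 71.3 to 0.367 RPKM, and the ventral neural tube genes Nkx6-2 and Nkx2-9 went from 3.14 to 0.0352 and from 3.91 to a listed 0. Olig2, also a ventral gene, rose from 0.686 to 448 RPKM, Bcl2, a survival factor, from 0.374 to 14.0 and Hey2, a repressor of the Notch response, from 1.30 to 10.4. Most of these genes also answer to other pathways.

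The ESC were grown on feeder fibroblasts, a cell type whose markers were therefore counted. Of all tested genes 32.3% rose and 33.9% fell, and of 18 tested fibroblast markers 3 rose and 11 fell in NPC. The markers that rose were Twist1 (6.99 RPKM in ESC and 26.8 in NPC), Col5a1 (5.69 and 10.1) and Prrx1 (3.48 and 9.04). Those that fell included Tagln (36.0 and 0.797) and Col1a1 (4.96 and 0.337). The summed exon level of the fibroblast markers was 149 RPKM in ESC and 64.2 in NPC. None of the 19 listed in the table was at 0 in either cell type. Their part in the ESC levels of the set was not tested, and in bulk samples fewer cells of a type and less RNA per cell cannot be told apart. The 5 astrocyte markers summed to 11.5 RPKM in ESC and to 1578 in NPC, and all 5 rose. The 7 neuronal markers with values were mixed: of 5 tested, 2 rose (Map2 from 2.14 to 371 RPKM, and Dcx from 0.0639 to 33.8) and 3 fell (Stmn2 from 160.5 to 0.792, Tubb3 from 76.8 to 16.8, and Nefl from 33.4 to 0.795). Their sums were 273 RPKM in ESC and 425 in NPC, and their medians 2.14 and 1.16. The part of astrocyte or neuronal cells in the levels of the coreceptors and Smo was not tested.

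Over the 2 cell types, the genes nearest in exon level were Coq9 and Golga2 for Ptch1, Usp3 and Ccnd2 for Smo, Nsg2 and Pik3ip1 for Gas1, Pcdh7 and Tmem198b for Cdon, and Fkbp1b and Uck1 for Sufu. Nearest to Gli1 were Krt8 and B4galnt3, to Gli2 Ccnd3 and Rhpn2, and to Gli3 Sclt1 and Tldc1. Likeness was the distance over log2(RPKM + 0.1) in ESC and NPC, which ran from 0.00659 (Pcdh7 and Cdon) to 0.222 (Pik3ip1 and Gas1). With 2 points per gene this is a description of level alone.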

How the data were processed

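RNA of ESC and NPC was measured in 8 libraries, 2 technical libraries for each of 2 biological replicates per cell type. The authors deposited exon RPKM pooled per cell type, with a log2 fold change and an adjusted p-value, in 20596 rows, of which 84 without a name were left out. Per the submitters' processing notes, DESeq2 1.10.0 and mm9 were used, while no source used here gives the aligner, counter, annotation or strand use. The authors also deposited intron values per biological replicate with technical libraries combined (18719 rows, 64 unnamed and left out). Their RPKM unit was inferred from the values: whole reads came back within 0.001 reads for all 18447 genes above 0, with several possible lengths in 1510.

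Exon calls were read as deposited at an adjusted p under 0.05 where the mean level reached 1 RPKM. Introns were tested with limma 3.58.1 in R 4.3.3 on log2(RPKM + 1) with the mean-variance trend and Benjamini-Hochberg adjustment, over the genes whose mean reached 1 RPKM. This scale understates the change of low genes. The script was tested on simulated data. With 2 against 2 replicates an exact permutation test cannot go below 0.333, so none was used. Members and lists were chosen with earlier results of these data known. From each role, up to 3 called genes with the largest deposited exon change per direction are named, with Shh, Ihh, Dhh and Hhip, and some genes that this rule covers are not reported here. Alternatives changed the filter, threshold, pseudocount, scaling, background, trend, model, pairing and replicates. Gene overlaps and exon numbers come from GENCODE M21, of another build, by name only. Summaries used Python 3.11.15.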

Additional observations from a re-analysis of the deposited data

How the results depend on the processing

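On introns no member changed direction under the alternatives run, 13 for each of Ptch1, Smo, Gli1, Gli2 and Cdon and 3 for each of Sufu, Gli3 and Boc. Most of these could not have changed a direction. Dropping the filter or the trend, or adding the replicate block, leaves the fold as it was. Since the groups did not overlap, another pseudocount or leaving out a replicate cannot reverse it. On exons the log2 ratio of the deposited RPKM, the one alternative that could move a fold, kept the direction of all 8 genes. On exons, Gli3 (0.78) was not called at 0.01, and with a mean of at least 10 RPKM 1 member and 5 pathway genes were called lower, against 2 and 10. On introns Smo was not called without the filter or the trend (0.87 each), with background subtracted (0.68), in voom (1.23) or in voom over all genes with 10 reads (1.22). Gli2 was not called without the filter or the trend (-0.59 each), at a 0.1 RPKM filter and pseudocount (-1.11), with scaled columns (-0.20) or in voom over all genes (-1.23), Cdon not without the filter (1.38). Ptch1 became called with scaled columns (1.09), and Boc when tested (1.19, 2.99 and 3.87 without the filter, at 0.1 RPKM and in voom over all genes). Members called higher and lower were 2 and 2, against 1 and 1 without the filter or without the trend, 1 higher with background subtracted or in voom, and 1 lower at 0.1 RPKM, with scaled columns or in voom over all genes. Pathway genes, 9 and 3, became 0 and 0 without the filter and 1 and 1 in voom over all genes. Leaving out each replicate gave 0.22 to 1.16 for Ptch1, 0.48 to 1.26 for Smo, -2.49 to -2.32 for Gli1, -0.74 to -0.45 for Gli2 and 1.08 to 1.69 for Cdon, with 1 to 3 members higher and 1 to 2 lower, and 1 to 20 pathway genes higher and 2 to 14 lower, while 18.1% to 74.6% of all genes were called. In such fits the lone sample is assumed to vary like the other group. Over all genes 4165 were called, against 1166 without the filter, 1554 in voom over all genes, 2728 with background subtracted, 1686 and 1594 without ESC replicates 1 and 2, and 6574 without NPC replicate 2. Replicate numbers are not stated to pair the samples. The replicate differences of ESC and NPC had r = 0.0190 across genes, which cannot exclude pairing with 2 replicates per cell type. With the replicate block in limma the calls of the members stayed the same, with Smo at adjusted p = 0.00356. The exon depth is unknown, and with 2 replicates a group the intron tests of Sufu and Gli3 cannot tell a small change from none.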
